A study of Arabidopsis thaliana with 32 samples.

Results

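The core spliceosome components studied here are 9 Arabidopsis thaliana genes, chosen by name and matched by gene identifier to deposited summit lists: PRP8, BRR2A, CLO, SF3B1, U2AF65A, U2AF65B, U2AF35A, U2AF35B and U1-70K, of 27444 nuclear protein-coding genes in all. All 9 identifiers were found in the gene annotation, and 8 of the 9 genes were in at least 1 list, beside 33.2% of all. RNA polymerase II (RNAPII) with phosphorylated Ser2 in its C-terminal domain (S2P), a form enriched on elongating polymerase, had been mapped by ChIP-seq in seedlings grown in vitro, 14 days after stratification. The groups were wild-type Col-0 and tfiis-1, a mutant line of the elongation factor TFIIS, each unheated (0 min) or heat-shocked for 10 min, 30 min or 3 h. Each of these 8 groups had 3 ChIP libraries and 1 input library (24 and 8 in all). The sources used here give neither the temperature of the heat shock nor the nature of the tfiis-1 allele. Marker genes of the tissue were not checked, since the lists hold differences between genotypes and not levels.

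The data are 8 lists of summits, each summit being the 1 bp at which the authors called one genotype above the other. A tfiis-1-higher list holds sites with more S2P RNAPII signal in tfiis-1, and a Col-0-higher list holds sites with more signal in Col-0. The lists held 29485 summits in all, between 41 and 12084 per list, after repeated lines were counted once. No list gives a value per library. Depth and the spread between replicates are therefore unknown, no difference at a single gene has a replicate check here, and all that follows is description without a test. More polymerase per cell and more cells with polymerase on a gene cannot be told apart in such bulk samples.

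The spliceosome removes introns from pre-mRNA, largely while RNAPII is still transcribing. In work on yeast and human proteins, the U1 particle recognises the start of the intron, U2AF and the U2 particle recognise its end and branch point, and the U5 particle joins with U4 and U6 to form the catalytic machine. TFIIS stimulates RNAPII to cut its own transcript after backtracking, so that elongation can resume. Heat stress is known to disturb splicing in plants.

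In these 9 genes the sites of higher signal in tfiis-1 were few before 30 min of heat and present in 8 of 9 genes from then on. At 0 min 1 of 9 genes was tfiis-1-higher, beside 4.9% of all nuclear protein-coding genes. At 10 min it was 2 of 9, beside 10.9%. At 30 min it was 8 of 9 (88.9%, exact 95% interval 51.8 to 99.7) beside 16.6%, and at 3 h again 8 of 9 beside 23.7%. The Col-0-higher lists held none of the 9 at 0 min and 10 min, beside 0.113% and 0.251% of all genes, 1 of 9 at 30 min beside 3.16%, and 4 of 9 at 3 h (44.4%, 13.7 to 78.8) beside 10.8%. The intervals treat genes as independent draws, cover counting error only and do not describe replicates. Since these genes were chosen with earlier results of these data known, the intervals are no evidence of an excess over all genes.

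These genes are long, with a median of 4160 bp against 2078 bp over all nuclear protein-coding genes, and long genes were called more often. Among the 12805 genes of 2000 to 4999 bp, 23.5% were tfiis-1-higher at 30 min and 32.8% at 3 h, while 6 of the 7 core genes of that length were called at each of these times. Of the 1639 genes of at least 5000 bp, 43.4% and 51.5% were called, and both core genes of that length were. At 0 min and 10 min the tfiis-1-higher lists held 1 and 2 of the 7 shorter core genes, beside 6.55% and 15% of that length class, and neither of the longer ones, beside 13.1% and 17%. The Col-0-higher lists held none of the 7 at 0 min and 10 min, beside 0.148% and 0.258%, 1 at 30 min beside 3.68% and 4 at 3 h beside 13.2%. They held neither PRP8 nor BRR2A at any time, beside 0.183%, 0.366%, 9.46% and 21% of genes of at least 5000 bp.

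**Figure D1:**
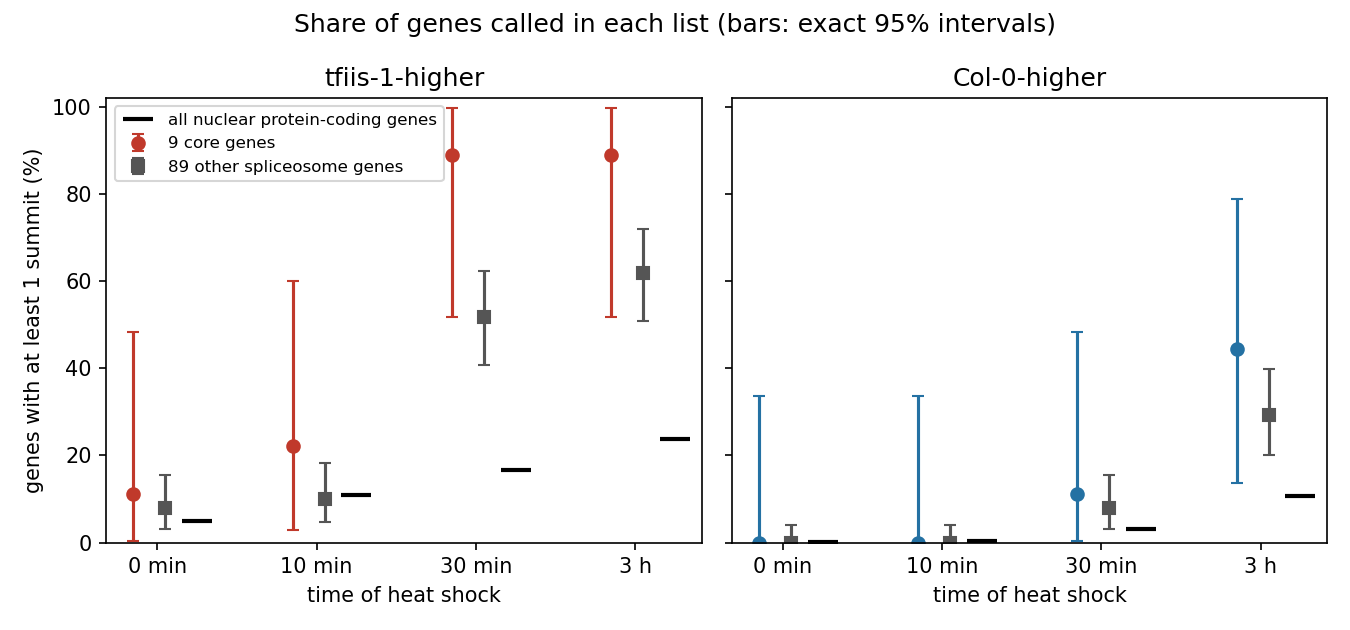
Percent of genes with at least 1 summit (vertical axis) by time of heat shock in the tfiis-1-higher lists (left) and Col-0-higher lists (right), for the 9 core genes (circles), 89 other spliceosome genes (squares) and all nuclear protein-coding genes (dashes); vertical bars are exact 95% intervals. The core genes go from 1 of 9 at 0 min to 8 of 9 at 30 min in the tfiis-1-higher lists, where the dash goes from 4.9% to 16.6%. The core genes and the 89 others were chosen with earlier results of these data known.

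The 3 members of the U5 particle were called first at 30 min. PRP8 (AT1G80070, chromosome 1, plus strand, 9965 bp), which forms the cavity that holds the splice sites in the active spliceosome, had the most summits of the 9 genes, 11 in all. At 30 min its 5 tfiis-1-higher summits lay 738, 1594, 2696, 5838 and 7687 bp from the annotated start (TAIR10 positions 30118585 to 30125534). At 3 h there were 6, at 155, 733, 2654, 4698, 6214 and 7500 bp (positions 30118002 to 30125347). The summits of both times left the last 2277 bp of the gene free, and PRP8 was in no Col-0-higher list. The summit at 733 bp lay 5 bp from one of 30 min, and 4 of the 6 summits at 3 h lay within 500 bp of one at 30 min. Genes of at least 5000 bp that were tfiis-1-higher had a median of 3 summits at both times, with quartiles of 2 and 4, so PRP8 lay above the upper quartile. Per kb of gene, PRP8 had 0.502 summits at 30 min and 0.602 at 3 h, where the medians of that length class were 0.380 and 0.372. The upper quartiles per kb were 0.572 and 0.567. By this measure PRP8 lay within the quartiles at 30 min and above the upper one at 3 h.

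BRR2A (AT1G20960, named emb1507 in RefSeq, chromosome 1, minus strand, 8673 bp) encodes the RNA helicase that unwinds U4 from U6. It had 2 tfiis-1-higher summits at 30 min, 2576 and 3678 bp from the start, and 4 at 3 h, at 147, 2420, 4713 and 5735 bp. The summit at 147 bp (position 7310124), called at 3 h only, is within the first 2% of the gene. The last 2937 bp held no summit, and BRR2A too was absent from the Col-0-higher lists. AT1G20950, which overlaps the end of BRR2A by 35 bp, had 1 Col-0-higher summit at 3 h, outside BRR2A.

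CLO (AT1G06220, named MEE5 in RefSeq, chromosome 1, plus strand, 4947 bp) encodes the GTPase related to Snu114 of yeast, which controls the BRR2 helicase there. Its tfiis-1-higher summits lay 1825 and 2942 bp from the start at 30 min and 1307 bp from it at 3 h. At 3 h a Col-0-higher summit lay 34 bp from the end of the gene (position 1904863), 3605 bp downstream of the tfiis-1-higher one. CLO was the only one of the 3 U5 genes in a Col-0-higher list, and the nearest other protein-coding gene was 714 bp away.

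**Figure D2:**
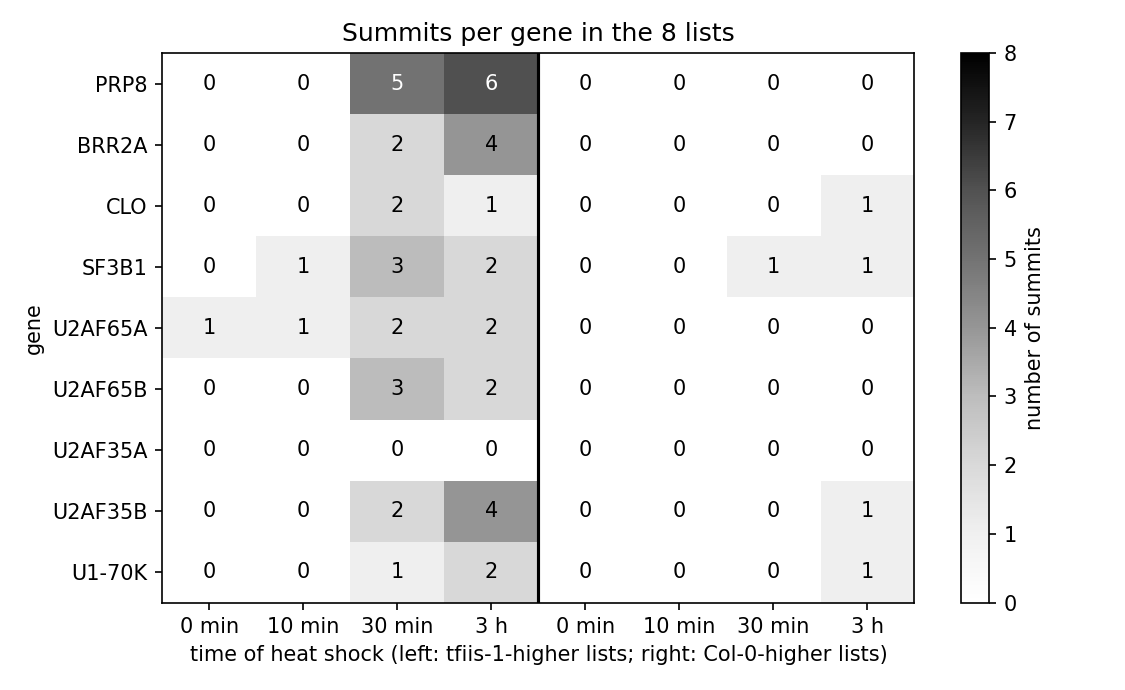
Number of summits per gene (rows) in each of the 8 lists (columns: time of heat shock, the 4 tfiis-1-higher lists left of the line and the 4 Col-0-higher lists right of it); darker cells hold more summits. PRP8 has 5 and 6 tfiis-1-higher summits at 30 min and 3 h, U2AF65A is the only gene with a summit at 0 min, and U2AF35A has none in any list.

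SF3B1 (AT5G64270, chromosome 5, plus strand, 25706608 to 25711355 in TAIR10, 4748 bp) encodes the U2 subunit that, in human and yeast, clamps U2 RNA on the branch point. It was in 5 lists, the most of the 9 genes. At 10 min its tfiis-1-higher summit lay 422 bp from the end of the gene, at position 25710933. At 30 min a Col-0-higher summit lay 20 bp from there, at 25710953, and at 3 h another lay at 25710997, 44 bp further on. At this site tfiis-1 was thus the higher genotype after 10 min of heat and Col-0 the higher one after 30 min and 3 h.

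Further upstream SF3B1 had summits at 30 min and 3 h only, all tfiis-1-higher. The summits of 30 min lay 1961, 2359 and 3313 bp from the start, and those of 3 h at 273 and 1945 bp, the latter 16 bp from one of 30 min. The Col-0-higher summit of 30 min had a score of 8.95 on the authors' scale, ranked 313 of 896 in its list, where the median was 6.78 and the highest 37.6. Each SF3B1 summit stood on 2 identical lines of its list and was counted once. The last 357 bp of SF3B1 overlap DiT2.2 (AT5G64280), which had no summit of its own in any list. The Col-0-higher summit of 3 h lay 358 bp from the end of SF3B1, just outside that overlap. ChIP signal has no strand, so signal of the 2 genes near this border cannot be told apart.

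The 20 bp between these opposite summits of SF3B1 is less than the median over genes in both lists. Of the 356 genes in both of the lists where SF3B1 changed direction between 10 min and 30 min, 226 (63.5%) had summits of both lists within 500 bp, with a median distance of 264.5 bp. Between 10 min and 3 h the opposite summits of SF3B1 lay 64 bp apart, and 1242 genes were in both of those lists. Of these, 951 (76.6%) had summits of both lists within 500 bp, with a median distance of 193 bp. A change of direction near one site was thus common among such genes and not particular to SF3B1. SF3B1 was in the same set of 5 lists as 75 others, 76 genes in all, which is 0.834% of the genes in any list.

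**Figure D3:**
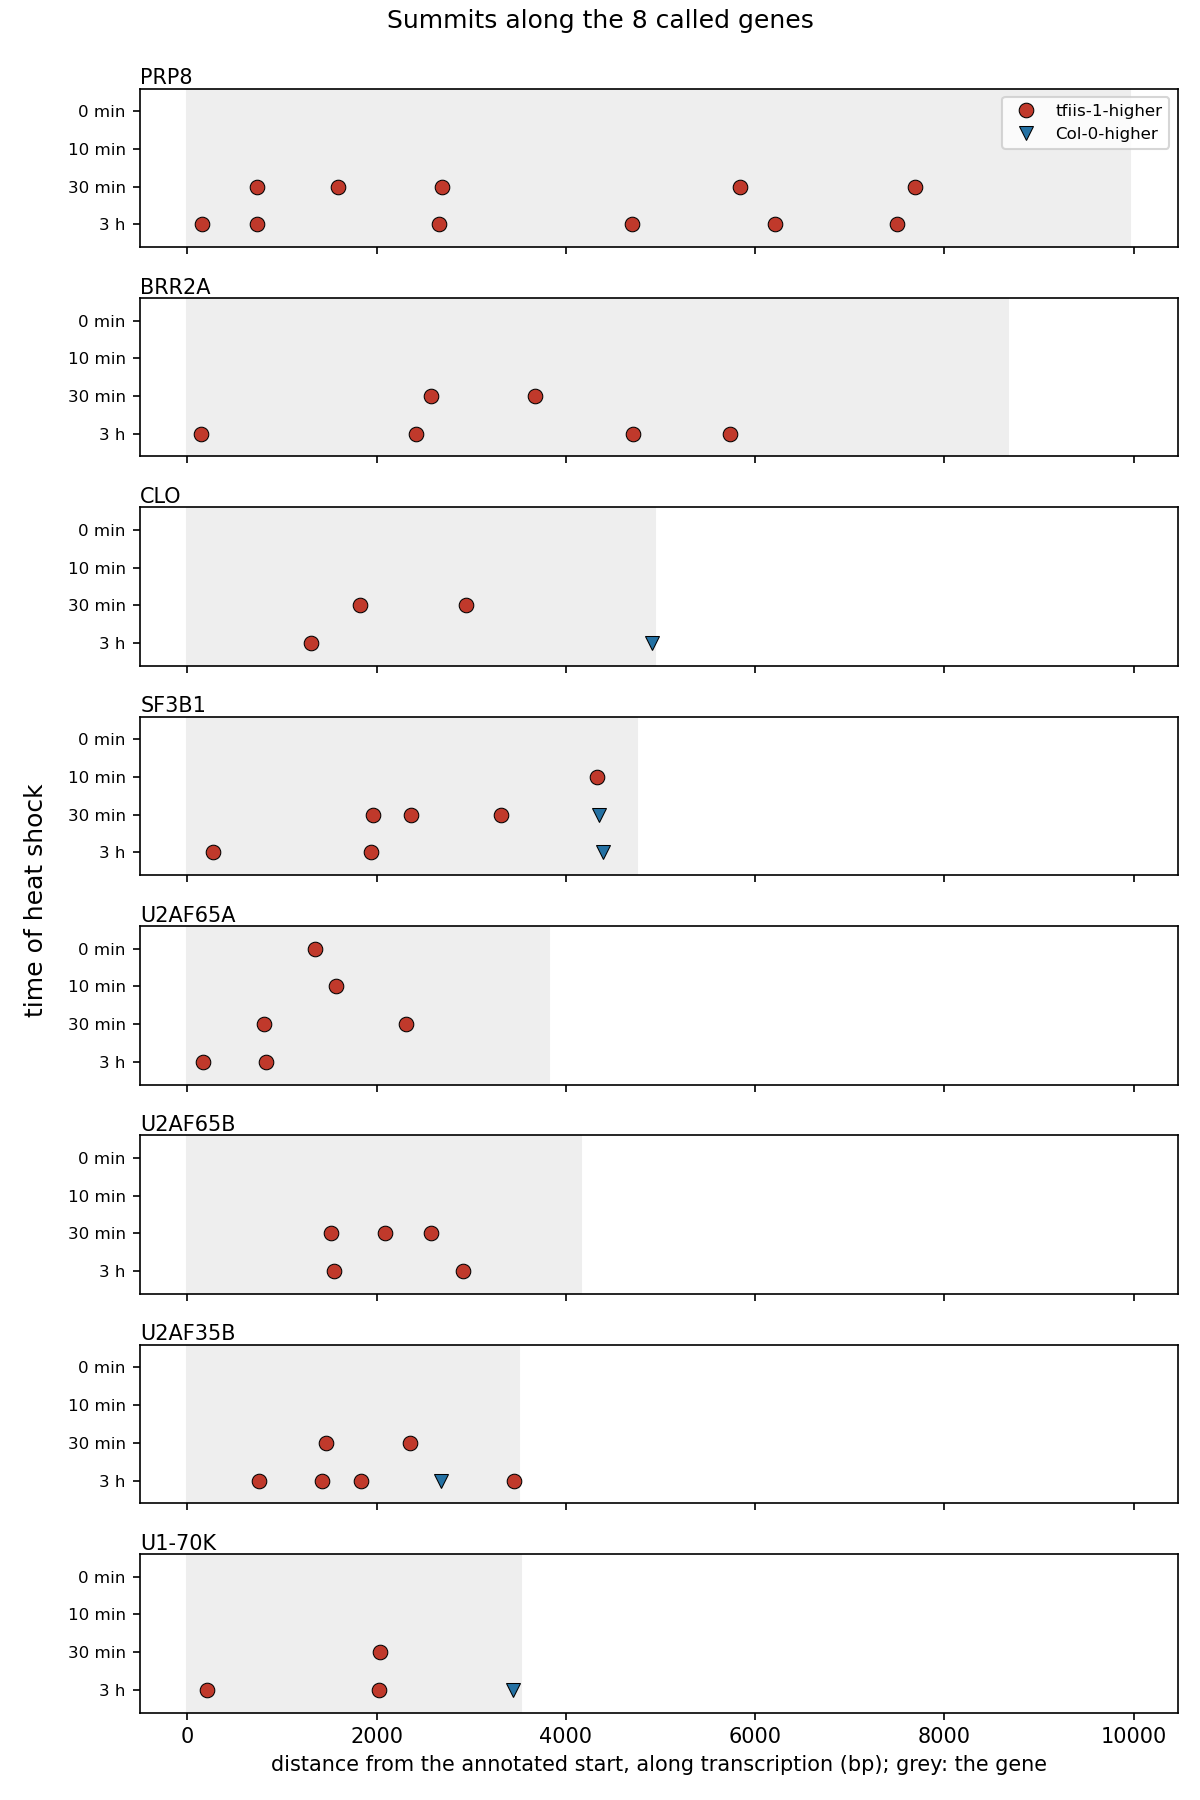
Summits along the 8 called genes: distance from the annotated start in bp (horizontal axis) by time of heat shock (vertical axis), with tfiis-1-higher summits as circles, Col-0-higher summits as triangles and the gene in grey. The circle of SF3B1 at 10 min stands 20 bp from the triangle of 30 min, and in CLO, SF3B1 and U1-70K the triangles lie downstream of all circles of their time.

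U2AF, the heterodimer that marks the end of the intron, has 2 genes for each subunit in Arabidopsis, and the copies differed in their calls. U2AF65A (AT4G36690, chromosome 4, minus strand, 3824 bp) encodes the large subunit, which in human cells binds the polypyrimidine tract. It was the only one of the 9 genes called without heat, and it was tfiis-1-higher at all 4 times. It was in no other list, and 294 genes in all had this membership, 3.23% of the genes in any list. The summit of U2AF65A lay 1352 bp from the start at 0 min and 1566 bp from it at 10 min. At 30 min there were summits at 813 and 2311 bp on either side of these, and at 3 h at 167 and 826 bp. The middle of the gene, where the summits of 0 min and 10 min lay, held none at 3 h, and no summit of U2AF65A at 3 h lay within 500 bp of that of 0 min (nearest 526 bp).

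U2AF65B (AT1G60900, chromosome 1, plus strand, 4160 bp), the other large-subunit gene, was called only at 30 min and 3 h. It had 3 tfiis-1-higher summits at 30 min, 1514, 2093 and 2571 bp from the start, and 2 at 3 h, at 1553 and 2917 bp. All 5 lay in the middle of the gene, between positions 0.36 and 0.70 on a scale from 0 at its start to 1 at its end. Neither large-subunit gene was in a Col-0-higher list.

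U2AF35A (AT1G27650, chromosome 1, 2024 bp) encodes the small subunit, which in human cells contacts the AG that closes the intron. It was in none of the 8 lists, as were 56.9% of nuclear protein-coding genes of 2000 to 4999 bp and 66.8% of all. It is the shortest of the 9 genes, at the 48.3 percentile of all gene lengths, and AT1G27640 overlaps 356 bp of it. An absence from the lists does not show that polymerase on U2AF35A was alike in the genotypes.

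U2AF35B (AT5G42820, chromosome 5, minus strand, 3505 bp), the other small-subunit gene, had 2 tfiis-1-higher summits at 30 min (1465 and 2356 bp from the start) and 4 at 3 h (756, 1418, 1840 and 3447 bp). At 1.14 summits per kb at 3 h it was the densest of the 9 genes, where called genes of 2000 to 4999 bp had a median of 0.566 and an upper quartile of 0.834. Its Col-0-higher summit of 3 h (position 17170110) lay 827 bp from the end, between tfiis-1-higher summits. This gene shares much of its length with others. The summit at 756 bp also lay in AT5G42825 and was listed under both, those at 1840 bp (3 h) and 2356 bp (30 min) also lay in the lncRNA gene AT5G06395, and the one at 3447 bp, 57 bp from the end, also lay in IPK1 (AT5G42810). Without these 4 summits U2AF35B kept 1 tfiis-1-higher summit at each of 30 min and 3 h, and the Col-0-higher one.

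The sources used here do not say how reads shared by similar copies such as the U2AF genes were counted, so the difference between copies is a difference between their listed calls only.

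U1-70K (AT3G50670, chromosome 3, minus strand, 3525 bp) encodes the U1 protein that holds the particle at the start of the intron and contacts SR proteins. A single tfiis-1-higher summit lay 2032 bp from the start at 30 min, and 2 lay at 204 and 2023 bp from it at 3 h. The summit at 2023 bp lay 9 bp from that of 30 min, while the one at 204 bp (position 18829480) was called at 3 h only. At 3 h a Col-0-higher summit lay 79 bp from the end of the gene (position 18826239). The nearest other protein-coding gene was 4471 bp away, so the site at the end of U1-70K does not lie beside an annotated protein-coding neighbour.

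At 3 h, 4 of the 8 tfiis-1-higher core genes (CLO, SF3B1, U2AF35B and U1-70K) were also Col-0-higher, beside 24.3% of all genes in the tfiis-1-higher list of that time and 5.75% of all genes. At 30 min it was 1 of 8 (SF3B1), beside 8.88% and 1.47%. In CLO, SF3B1 and U1-70K the Col-0-higher summit lay downstream of every tfiis-1-higher summit of 3 h, at positions 0.99, 0.92 and 0.98. In U2AF35B it lay at 0.76, upstream of the tfiis-1-higher summit at 0.98. Of the 1578 genes with both directions at 3 h, 97.3% had every Col-0-higher summit downstream of every tfiis-1-higher one, and U2AF35B has the other order only through its summit that also lies in IPK1. Without the summits shared with other genes, its remaining tfiis-1-higher summit of 3 h, 1418 bp from the start, lay upstream of the Col-0-higher one at 2677 bp. In none of the 4 genes did opposite summits lie within 500 bp, the nearest pair being 770 bp apart in U2AF35B, with the same shared summit, and among all 1578 genes 11.9% had such a pair. Both lists of a time compare the same libraries.

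All 8 called core genes were in the tfiis-1-higher list at both 30 min and 3 h, beside 13.6% of all genes, and 82.2% of the genes in the list of 30 min were in that of 3 h. In 7 of the 8 the nearest summits of both times lay within 500 bp, at 5 to 156 bp, and in CLO they were 518 bp apart. Over all 3739 genes in both lists 90.4% had summits within 500 bp, with a median distance of 35 bp. In 7 of the 8 the most upstream tfiis-1-higher summit lay nearer the start at 3 h than at 30 min. The difference was 2429 bp in BRR2A, 1828 bp in U1-70K, 1688 bp in SF3B1 and 709 bp in U2AF35B. It was 646 bp in U2AF65A, 583 bp in PRP8 and 518 bp in CLO. In U2AF65B the most upstream summit lay 39 bp further downstream at 3 h. The value of U2AF35B rests on the summit shared with AT5G42825, and without that summit the difference is 47 bp. Except in CLO, a summit of 3 h also lay 5 to 156 bp from the most upstream one of 30 min. In those genes, U2AF65B aside, a summit nearer the start was thus listed at 3 h beside one near the earlier site. In U2AF35B it is the summit shared with AT5G42825. The values do not show a site that moved. Absence from the list of 30 min does not show that polymerase was alike in the genotypes there at that time. Summits of 3 h were also listed further downstream. The most downstream one lay 2057 bp further from the start at 3 h in BRR2A, 1091 bp in U2AF35B, by the summit in IPK1, and 346 bp in U2AF65B.

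The most upstream summit lay nearer the start at 3 h in 7 of 8 genes, beside 72.2% of the 3739 genes in both lists. The direction of the difference is thus that of most genes. The median difference over the 8 genes was 677.5 bp toward the start. It was 139 bp over the 3739 genes and 365.5 bp over those of at least 3000 bp. The median of the 8 genes uses the 709 bp of U2AF35B, which rests on the summit shared with AT5G42825. With 47 bp in its place that median is lower. At 3 h 5 of the 8 genes (PRP8, BRR2A, SF3B1, U2AF65A and U1-70K) had a summit within 300 bp of the start, beside 22.8% of the 3739, and at 30 min none of the 8 did, beside 3.72%. The 300 bp window was chosen after the values were seen. A gene with more summits is more likely to hold one near its start: 4 of the 8 genes had more summits at 3 h than at 30 min, 1 had as many (U2AF65A) and 3 had fewer. Among the 4 with as many or fewer, the most upstream summit lay nearer the start in 3, beside 62.8% of all such genes. Taking the median summit of each gene in place of the most upstream one, 5 of 8 (62.5%) lay nearer the start at 3 h, beside 69.0% of the 3739 genes, and PRP8 and BRR2A then lay further from it, by 980 and 439.5 bp.

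**Figure D4:**
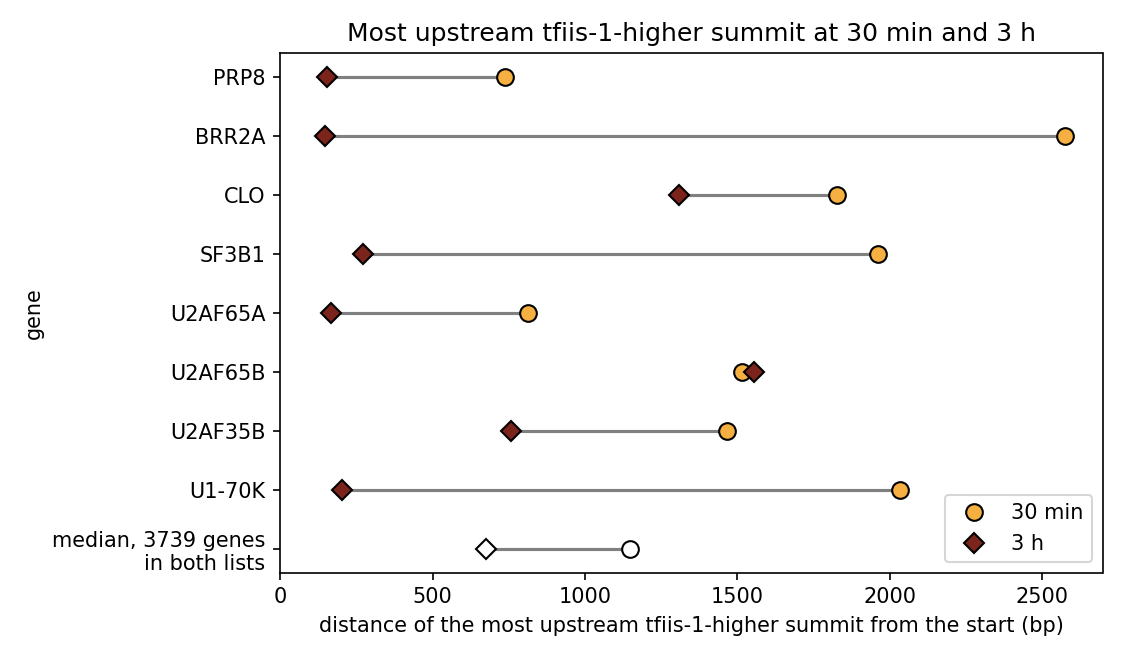
Distance of the most upstream tfiis-1-higher summit from the annotated start in bp (horizontal axis) at 30 min (circles) and 3 h (diamonds) for the 8 called genes, with the medians over the 3739 genes in both lists as open symbols. In 7 of 8 genes the diamond lies left of the circle, by 518 to 2429 bp; in U2AF65B it lies 39 bp to the right.

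Across the core genes the median position of the tfiis-1-higher summits was 0.46 at 30 min (20 summits, from 0.074 to 0.77) and 0.37 at 3 h (23 summits, from 0.016 to 0.98), where the medians of all summits in these lists were 0.51 and 0.40. In the first 10% of the gene there was 1 of the 20 summits at 30 min, beside 2.82% of all, and 6 of the 23 at 3 h, beside 11.8%. The 4 Col-0-higher summits of 3 h had a median position of 0.95, the same as that of the whole list, and 3 were in the last 10% of the gene, beside 65.5%.

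Genes with the same number of summits in each of the 8 lists were found for all 5 core genes that were in 3 or more lists. There were 25 such genes for CLO, the nearest in length being PLC8 (AT3G47290) and PDE135 (AT2G26510). For SF3B1 there were 5, the nearest being AT1G77680 and BET9 (AT5G14270). For U2AF65A there were 24, the nearest being PTB2 (AT5G53180), a polypyrimidine tract-binding protein, and AT3G57890. For U2AF35B there were 4, the nearest being ORG1 (AT5G53450) and SUVH9 (AT4G13460). For U1-70K there were 62, the nearest being AT4G15030 and AT1G31870. PRP8, BRR2A and U2AF65B were tfiis-1-higher at 30 min and 3 h and in no other list, a membership that 15.3% of the genes in any list had. CLO, U2AF35B and U1-70K were in those lists and the Col-0-higher one of 3 h only, as were 3.84% of the genes in any list.

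The rest of the spliceosome was described with 89 further genes, grouped by particle from general knowledge of the identifiers, of which 45 carry a symbol of their own in RefSeq. At 0 min 7 of the 89 were tfiis-1-higher (7.87%, exact 95% interval 3.22 to 15.5) and at 10 min 9 were (10.1%, 4.73 to 18.3), beside 4.9% and 10.9% of all genes. At 30 min it was 46 (51.7%, 40.8 to 62.4) beside 16.6%, and at 3 h 55 (61.8%, 50.9 to 71.9) beside 23.7%. None of the 89 was Col-0-higher at 0 min or 10 min, 7 were at 30 min (7.87%) beside 3.16%, and 26 were at 3 h (29.2%, 20.1 to 39.8) beside 10.8%. The median length of the 89 genes was 2643 bp. Length thus differs from that of all genes here too, though less than for the core genes. Group medians ran from 1616 bp (Sm and LSm) to 4534 bp (U5), and no share of like length was computed per group. Differences between the groups below are therefore not separated from length. For the Sm and LSm, U4/U6 and U5 groups the exact 95% intervals of the tfiis-1-higher shares included 16.6% at 30 min and 23.7% at 3 h. That of the DEAH helicases included 16.6% at 30 min. For the Col-0-higher shares of 3 h the intervals of the DEAH, Sm and LSm, U2 and U5 groups included 10.8%.

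Of the genes grouped as the PRP19 complex and step factors, which stabilise and drive the catalytic spliceosome, 17 of 21 were tfiis-1-higher at 30 min and 19 of 21 at 3 h. Of all nuclear protein-coding genes 16.6% and 23.7% were. MAC3B (AT2G33340), a PRP19-type ubiquitin ligase, had 1, 0, 3 and 3 tfiis-1-higher summits over the 4 times and 1 Col-0-higher summit at 3 h. AT2G16860 of this group had 1, 1, 2 and 1, and 1 Col-0-higher summit at 3 h. Of the DEAH helicases, which remodel the spliceosome between steps, 3 of 6 and 5 of 6 were tfiis-1-higher at these times. The interval at 30 min included the 16.6% of all genes. ESP3 (AT1G32490) had 1, 3 and 4 tfiis-1-higher summits from 10 min to 3 h, and AT3G26560 had 4 and 3 at 30 min and 3 h and 1 Col-0-higher summit at 3 h.

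In the U2 group 8 of 14 were tfiis-1-higher at both later times, beside 16.6% and 23.7% of all genes. The Col-0-higher lists of these times held 4 and 3 of the 14, beside 3.16% and 10.8%. AT4G21660 and emb2444 (AT2G18510) of the U2 group were each in 5 lists, as SF3B1 was and as AT2G16860 of the PRP19 group was. Of these, emb2444 alone was in the same lists as SF3B1. AT4G21660 was tfiis-1-higher at 0 min and not at 10 min. In the group of U1 and the factors of the intron's end 7 and 8 of 11 were tfiis-1-higher at these times. Of that group 5 of 11 were Col-0-higher at 3 h, beside 10.8% of all genes. AT4G03120 there had 3 tfiis-1-higher summits at each later time and 1 Col-0-higher summit at each, and AT5G51410 had 1, 3 and 2 tfiis-1-higher summits from 10 min on and 1 Col-0-higher one at 3 h.

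The Sm and LSm genes, whose proteins form rings on the spliceosomal RNAs, are short (median 1616 bp), and 5 of 22 were tfiis-1-higher at 30 min and 9 of 22 at 3 h. The shares of all genes were 16.6% and 23.7%. LSM6B (AT2G43810) had 1 tfiis-1-higher summit at each of these times and 1 Col-0-higher summit at 30 min, and LSM4 (AT5G27720, named emb1644) had 2 tfiis-1-higher summits at each time. In the U4/U6 group 2 of 6 were tfiis-1-higher at both times and 3 of 6 were Col-0-higher at 3 h (all genes 10.8%). Its 2 tfiis-1-higher genes were AT1G28060, with 1 and 2 summits, and emb1220 (AT1G60170), also with 1 and 2.

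In the U5 group 4 of 9 genes were tfiis-1-higher at 30 min and 4 at 3 h, beside 16.6% and 23.7% of all genes. EMB2770 (AT4G03430), the stress-linked factor STABILIZED1, ran otherwise than the 3 core U5 genes. Its tfiis-1-higher summits numbered 1 after 10 min of heat, 2 after 30 min and 0 after 3 h, and its Col-0-higher ones 1 after 30 min and 2 after 3 h. AT4G38780, AT2G42270 and AT5G25230, grouped here as relatives of PRP8, BRR2A and CLO but without a name in RefSeq, were in no list, while AT5G61140, also grouped with BRR2A, had 1 and 2 tfiis-1-higher summits at 30 min and 3 h and 1 Col-0-higher one at 3 h. The limit on reads shared by similar copies holds for these genes too.

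**Figure D5:**
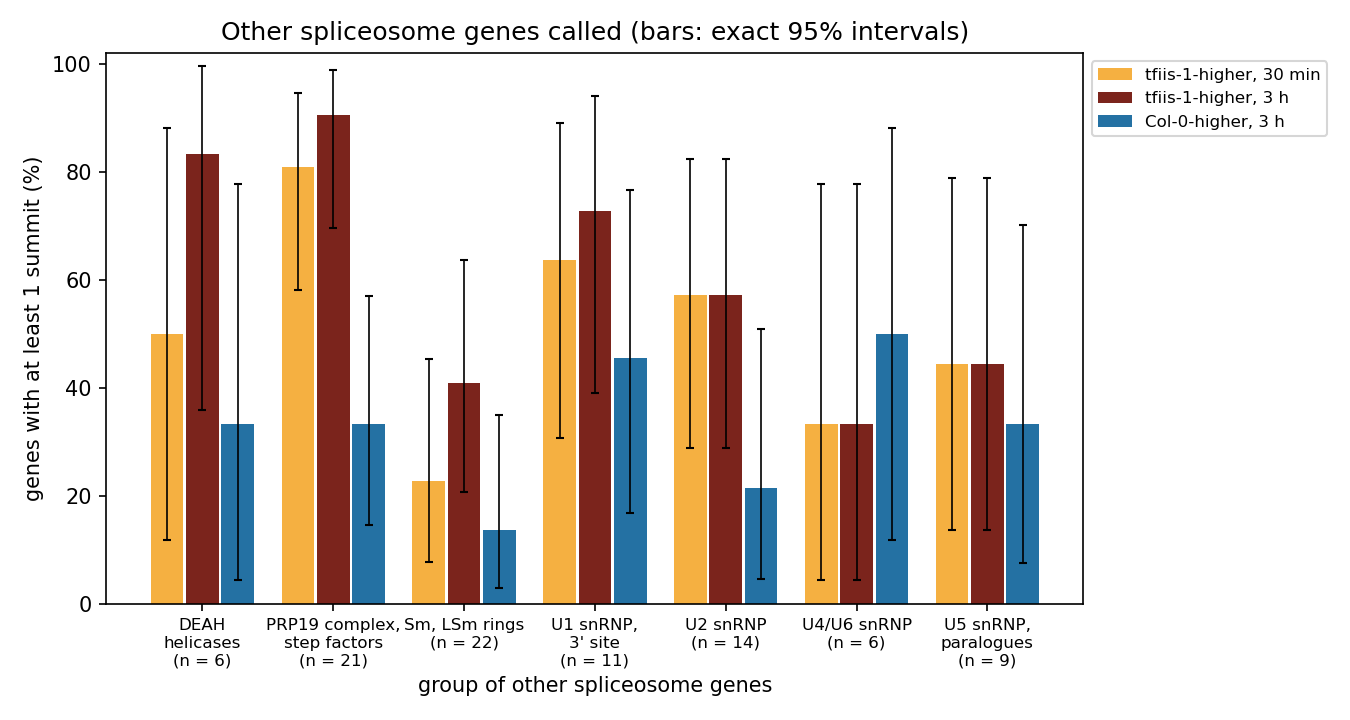
Percent of the other spliceosome genes with at least 1 summit (vertical axis) in 7 groups (horizontal axis, with the number of genes), for the tfiis-1-higher lists (30 min and 3 h) and the Col-0-higher list of 3 h; black bars are exact 95% intervals. The PRP19 complex group has 17 and 19 of 21 genes in the tfiis-1-higher lists and the Sm and LSm group 5 and 9 of 22, with wide intervals in the small groups. Gene length differs between the groups, with medians from 1616 bp to 4534 bp. Of all nuclear protein-coding genes, not drawn here, 16.6%, 23.7% and 10.8% were in these lists, in that order.

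The median position of their tfiis-1-higher summits was 0.39 without heat (7 summits), 0.83 after 10 min (9 summits), 0.44 after 30 min and 0.37 after 3 h. The medians of all summits in these lists were 0.40, 0.78, 0.51 and 0.40, so the sequence of values is much that of the whole lists. That of their Col-0-higher summits of 3 h was 0.95, with 21 of 27 (77.8%) in the last 10% of the gene, beside 0.95 and 65.5% over the whole list. Some lay elsewhere: EMB2770 had Col-0-higher summits at 0.050 at 30 min, upstream of both its tfiis-1-higher ones, and at 0.091 at 3 h, and AT5G20160 had one at 0.19 at 3 h. Of the 43 in both tfiis-1-higher lists (30 min and 3 h), 34 (79.1%) had their most upstream summit nearer the start at 3 h. The share was 72.2% of the 3739 genes in both lists.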

How the data were processed

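The authors deposited 8 summit lists, 1 per direction and time, with 32357 lines. Per the labels' protocols, formaldehyde-crosslinked chromatin was sheared and precipitated with an antibody against S2P RNAPII. Per the submitters' processing notes, which state neither versions nor roles, Bowtie2, MACS3, deepTools, FastQC and the TAIR10 build were used. The sources used here do not give the calling threshold, the scaling between genotypes, the use of inputs or any pooling, each of which acts on every call. The score in 2 lists is the authors' deposited value per summit, on an unstated scale, used only for ranks. Positions (base numbers, as deposited) were placed on RefSeq gene intervals (TAIR10.1), which equalled all 936 intervals the lists hold. Exons and sequences were not used here.

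A gene was called by 1 summit. Repeated lines were counted once. Since no list holds library values, no test was possible. The core genes and the list of 89 were chosen with earlier results of these data known. Named among the 89 were the relatives of PRP8, BRR2A and CLO and the 2 genes per group in the most lists; like genes were ranked by summed absolute differences in summits over the 8 lists, then by length. Counting and placement were tested on simulated data. Python 3.11.15, pandas 2.3.3, numpy 2.4.6, scipy 1.17.1 and matplotlib 3.10.9 were used.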

Additional observations from a re-analysis of the deposited data

How the results depend on the processing

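Of 68 values recomputed under alternative settings, 61 stayed close to the reported ones. Close meant counts within 1.5 times, shares within the exact 95% interval and median positions within 0.05. Not all of the 61 were free to move. With Col-0 above tfiis-1, unheated or after 10 min, no core gene and none of the 89 others was called. Each setting there returned 0 again. Leaving out PRP8 cannot change a list without PRP8 summits. Taking 1 position per gene cannot change a list where each called core gene has 1 summit. Merging summits within 300 bp (8 values) could change nothing, since the closest summits of a core gene in one list lay 398 bp apart. Keeping only summits in 1 listed gene (8 values) took out a single summit of U2AF35B, which had others in that list. Asking for genes of at least 1000 bp (8 values) dropped only AT5G12190 (956 bp), so these values could hardly move. Such values are no evidence of stability. Asking for at least 2 summits per gene left 7 core genes tfiis-1-higher at 30 min and 7 at 3 h, and 0 at 0 min and 0 at 10 min. It left 0 Col-0-higher core genes at 30 min and 0 at 3 h, since each had 1 summit there. Asking for opposite summits within 500 bp left 0 core genes with both directions at 30 min and 0 at 3 h. Counting every line as deposited gave 2 lines in place of 1 summit in the Col-0-higher list of 30 min, since SF3B1 lines stood there in duplicate. A score of at least the list median kept SF3B1. The symbol-based subset of the 89 genes was added after the data were seen. So were the comparisons of 30 min and 3 h by median summits and in genes with as many or fewer summits. No paired analysis was possible because the lists hold no value per library, and for the same reason no replicate could be left out. Depth is unknown.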

Other observations

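Of the 89 other spliceosome genes, 27 (30.3%) were in no list, beside 66.8% of all nuclear protein-coding genes. They included long genes, chosen for mention after their values were seen: PRP40A (AT1G44910, 7362 bp), PRP39-2 (AT5G46400, 4850 bp) and both SAP130a (AT3G55200) and SAP130b (AT3G55220), which encode near-identical subunits of the U2 particle. PRP40B (AT3G19670) and PRP40C (AT3G19840), from the same family as PRP40A, had 1 and 4 tfiis-1-higher summits at 3 h. PRP40B also had 3 at 30 min and 1 Col-0-higher summit at 3 h. PRP39 (AT1G04080), related to PRP39-2, had 2 tfiis-1-higher summits at 30 min and 6 at 3 h. DOT2 (AT5G16780), a splicing factor of vein and meristem development, had 5 at 30 min and 3 at 3 h, the count of PRP8 at 30 min.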
